A study of Homo sapiens with 34 samples.

Results

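LNCaP is an established human prostate cancer line derived from a lymph node metastasis. LNCaP cells on an amorphous calcium phosphate (ACP) coating were compared with LNCaP cells on tissue culture plastic, both in medium with charcoal-dextran-stripped serum and both labelled day 4. The comparison takes in 4 of the 34 libraries of the series, 2 on ACP and 2 on plastic, chosen by their sample labels alone. Both groups had the same RPMI-based medium with 10% serum, and neither received hormone. The other 6 of the 10 LNCaP libraries were on plastic in control medium with unstripped serum, on ACP in that control medium, and on ACP in stripped serum with androgen at a labelled 100 mM, 2 libraries each. The titles name this androgen as DHT and the condition labels as testosterone. No day is labelled for the plastic control libraries, while the other LNCaP groups are all labelled day 4. Per the labels, plastic and ACP cultures were set up as separate experiments from separate flasks, so surface and experiment cannot be told apart. The labels do not say that the 2 libraries of a group came from separate cultures, so p-values measure only the spread between these libraries, which may be technical. LNCaP is 1 line, and its replicates are not replicates of a tumour.

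Charcoal stripping removes steroid hormones from serum, and the prostate kallikreins and many other luminal genes depend on those hormones. Androgens act through a nuclear receptor that binds short response elements in DNA. Prostate cancer spreads chiefly to bone, whose mineral is a calcium phosphate, and ACP is a poorly ordered form of such a mineral. The comparison therefore asks what LNCaP cells express on a mineral surface when androgen has been withdrawn.

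The 2 plastic libraries held 37.0 M and 17.1 M reads and the 2 ACP libraries 30.1 M and 26.8 M, so the second plastic library was the least deep of the 10 LNCaP libraries. Pearson's r over genes, which are not independent replicates, was 0.9845 between the plastic libraries and 0.9889 between the ACP libraries. All 11 luminal prostate markers were read in each of the 4 libraries and summed to 5209 and 5475 reads per 1 M of scaled library size (CPM) on plastic and 7756 and 8513 CPM on ACP, as the label of a prostate epithelial line has it. BGLAP, IBSP, DMP1 and SOST, made by osteoblasts and osteocytes, had 0 reads in all 4. So did the T cell genes CD3E and CD3D and the endothelial gene CDH5. Other members of the same marker lists were read. Osteoblast markers summed to 32.7 and 30.1 CPM on plastic and 25.3 and 23.3 CPM on ACP, with COL1A1 and RUNX2 included. The endothelial genes EGFL7 and VWF were at 86.6 and 67.8 and at 15.43 and 15.96 CPM on plastic. On ACP they were at 77.6 and 69.4 and at 32.28 and 39.91 CPM. CD68, of the leukocyte list, was at 3.49 and 3.24 CPM on plastic and 11.59 and 13.63 CPM on ACP. Summed fibroblast markers were at 34.2 and 30.1 CPM on plastic and 21.5 and 20.0 CPM on ACP, summed leukocyte markers at 10.49 and 15.01 against 17.1 and 19.5 CPM. Basal keratinocyte markers summed to 46.4 and 25.4 CPM on plastic and to 64.5 and 52.3 CPM on ACP. That sum included KRT5, a basal keratin, at 393 and 32 reads on plastic and 299 and 59 reads on ACP, so the higher values lay in the first replicate of both groups. The same sum held LAMB3 at 5.15 and 5.19 against 19.8 and 25.9 CPM, and ITGB4 at 14.5 and 13.0 against 9.28 and 9.13 CPM. The part of these reads in any result was not tested.

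The ACP surface went with a broad change that was larger upward than downward. With edgeR's quasi-likelihood test and a Benjamini-Hochberg adjusted p under 0.05 as the threshold, 897 of 14656 genes were called, or 6.12%. They were 633 genes higher on ACP (4.32%) and 264 lower (1.8%). Changes of at least 1 on the log2 scale were found in 277 of the higher and 69 of the lower genes, together 2.36% of genes tested. The median log2 change over all genes tested was 0.01. The count depended on single libraries: with each left out in turn it was 66 without plastic replicate 1, 1278 without plastic replicate 2, 118 without ACP replicate 1 and 138 without ACP replicate 2. The fit without the plastic control libraries gave 372 calls, the fit of all lines 342 and DESeq2 1775. Of the DESeq2 calls 1107 were higher and 668 lower, which is the background for its list counts below. The 2 ACP and the 2 plastic libraries did not overlap in 55.5% of all genes tested. That share is the background for each statement below on overlap between these 2 groups. For other pairs of groups such a share was not computed.

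**Figure D1:**
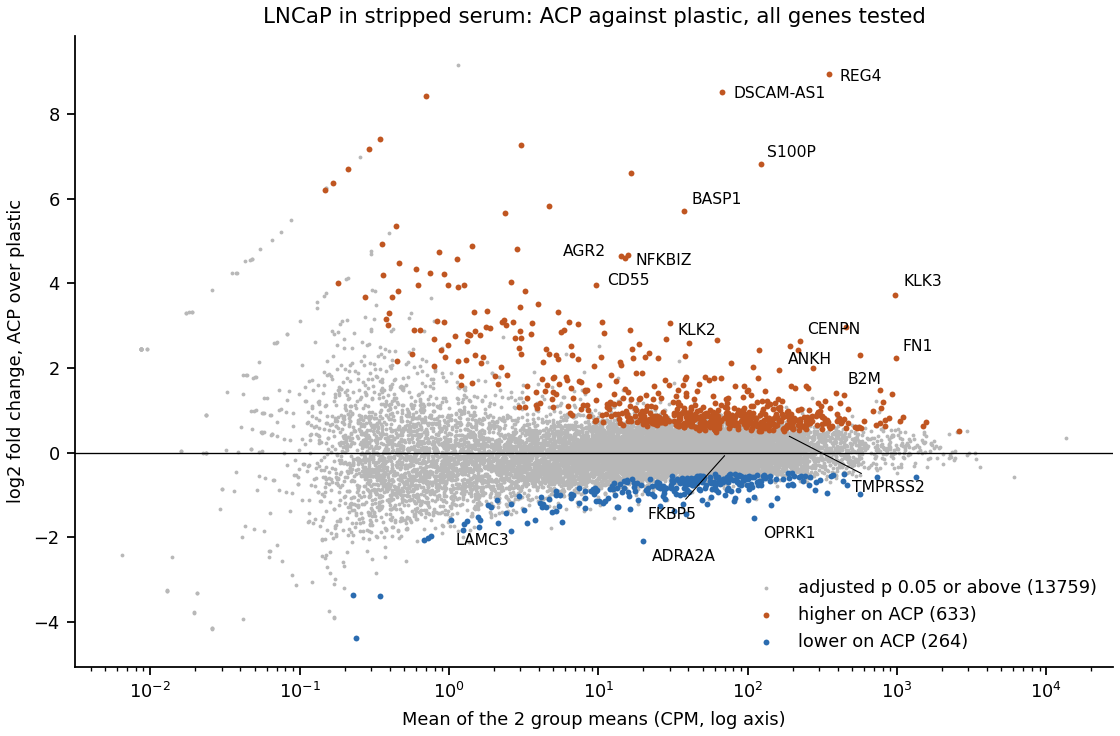
Each point is 1 of the 14656 genes tested, with the mean of the 2 group means in CPM on a log axis and the log2 fold change of ACP over plastic in stripped serum. Orange points are the 633 genes called higher on ACP and blue points the 264 called lower. The rises reach a log2 change of 8.95 in REG4, the falls -2.09 in ADRA2A among the genes named.

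The 12 largest rises, taken from called genes that averaged 5 CPM or more on the higher surface and whose groups did not overlap, started from genes that were nearly unread on plastic. REG4, a secreted lectin of the regenerating-gene family known from gut epithelium, was at 1.51 and 1.23 CPM on plastic and at 765 and 623 CPM on ACP. The 2 groups stood far apart, with a log2 change of 8.95 ± 1.14 (SE, adjusted p 0.00194). S100P, a small calcium-binding protein, was at 2.00 and 2.34 CPM on plastic and at 324 and 160 CPM on ACP (log2 6.82 ± 0.75, adjusted p 8.27e-04). AGR2, a protein disulfide isomerase of the endoplasmic reticulum in secretory cells, was at 0.96 and 1.28 CPM on plastic and at 20.5 and 33.99 CPM on ACP (log2 4.64 ± 0.42, adjusted p 2.87e-04). All 3 were read in every library, and the ACP level differed between the 2 replicates most in S100P.

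DSCAM-AS1, a long noncoding RNA, was at 0.29 and 0.50 CPM on plastic, which is 11 and 9 reads, and at 153 and 116 CPM on ACP (log2 8.53 ± 0.52, adjusted p 2.36e-05). Its sense neighbour DSCAM was at 0.16 and 0 CPM on plastic and 0.48 and 0.31 CPM on ACP and did not pass (adjusted p 0.197). Use of strand in the counting is not given in the sources used here, so reads of the antisense gene and of DSCAM cannot be told apart. GAPLINC, another long noncoding RNA, had 2 and 0 reads on plastic and 334 in the 2 ACP libraries together. That ratio of 171 after scaling has an exact 95% interval of 46.8 to 1414, which covers counting error only.

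Regulators, membrane proteins and secreted proteins made up the rest. C8orf4, a small regulatory protein, rose by 6.60 on the log2 scale, HOPX, a homeodomain protein that does not bind DNA, by 5.82, and BASP1, a protein of the inner cell membrane, by 5.71. SMOC1, a secreted calcium-binding matrix protein, rose by 4.81, and TARP, a transcript of the T cell receptor gamma locus made in prostate epithelium, by 4.66. TARP overlaps other transcripts of that locus, and how such reads were assigned is not given, so its size is uncertain. NFKBIZ, a nuclear member of the inhibitor-of-NF-kappa-B family, was at 1.25 and 1.12 CPM on plastic and 24.9 and 32.9 CPM on ACP (log2 4.59 ± 0.30, adjusted p 3.83e-05). CD55, which protects cells from complement, was at 1.17 CPM in both plastic libraries and at 17.6 and 18.9 CPM on ACP (log2 3.96 ± 0.39, adjusted p 4.32e-04). The calls of REG4, C8orf4, HOPX and SMOC1 were lost without plastic replicate 1, with adjusted p of 0.0746, 0.0686, 0.0977 and 0.0764 and log2 changes of 9.12, 7.14, 6.29 and 3.78. Without the same library GAPLINC was at 10.49, where the remaining plastic library has 0 reads, and TARP at 4.01. SMOC1 was at 6.06 and TARP at 5.26 without plastic replicate 2, and S100P at 6.20 without ACP replicate 1.

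**Figure D2:**
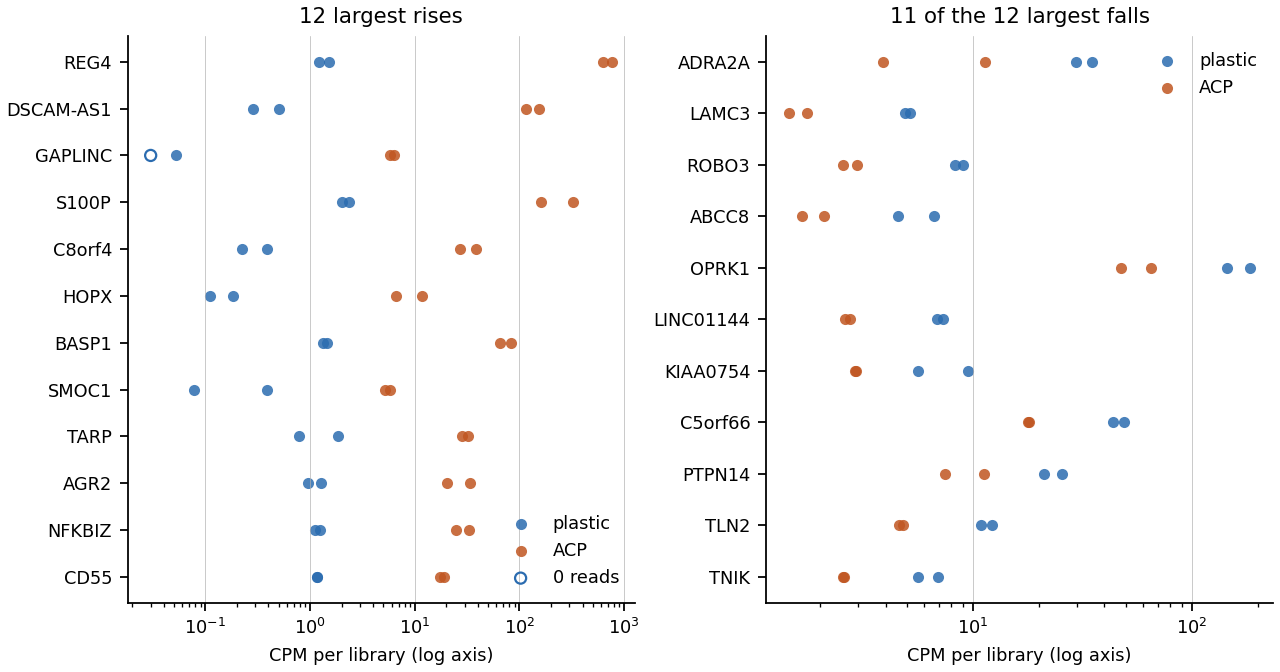
CPM of the 12 largest rises (left) and 11 of the 12 largest falls (right) in each of the 4 libraries, on log axes; blue points are plastic, orange points ACP, and the open circle marks a library with 0 reads, placed at the left edge. The rises run from near 1 CPM or less on plastic, while the falls start from genes already read on plastic and span a smaller range.

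The remaining LNCaP groups place these levels. In all 12 genes both ACP stripped libraries lay above both plastic control libraries, and in 11 of the 12 above both ACP control libraries, TARP being the exception. All 12 were also higher in both ACP libraries with androgen than in both stripped plastic libraries. REG4 was at 3.20 and 3.70 CPM on ACP in control medium and at 42.9 and 1.90 CPM on ACP with androgen, so its high level was seen in the stripped ACP libraries only among the 5 LNCaP groups. DSCAM-AS1 was at 0.59 and 1.81 CPM on ACP in control medium but at 251 and 132 CPM on ACP with androgen. BASP1 was at 65.7 and 82.2 CPM on ACP in stripped serum, 0.99 and 5.04 CPM on ACP in control medium, and 98.4 and 125 CPM with androgen. DSCAM-AS1 and BASP1 were thus high in both ACP groups grown in stripped medium and low in both control medium groups. These counts reuse the libraries that chose the genes and are a description with no test.

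Some androgen-induced genes were higher on ACP although no androgen had been added to either group. Of 45 such genes tested, 12 passed and all 12 were higher (26.7%, against 4.32% of all genes higher). Their median log2 change was 0.44, against 0.01 over all genes. KLK3, which encodes prostate-specific antigen, was at 137 and 136 CPM on plastic and at 1664 and 1937 CPM on ACP. The 2 pairs did not overlap, and the fold change was 13.2 (log2 3.73 ± 0.19, adjusted p 8.68e-06). KLK2, a kallikrein that activates prostate-specific antigen, was at 7.13 and 8.32 CPM on plastic and at 49.9 and 48.8 CPM on ACP, a change of 6.43 times (adjusted p 3.06e-04). KLK4, a further prostate kallikrein, was at 46.6 and 38.8 CPM on plastic and at 188 and 163 CPM on ACP (log2 2.03 ± 0.19, adjusted p 3.06e-04). CENPN, a kinetochore protein that the list holds as androgen-induced in LNCaP, was at 54.5 and 70.5 CPM on plastic and at 387 and 389 CPM on ACP (log2 2.64 ± 0.19, adjusted p 8.36e-05).

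The kallikrein genes lie side by side on chromosome 19. Reading along the cluster from KLK15, the log2 changes were 1.26 for KLK15, which did not pass (adjusted p 0.0650), 3.73 for KLK3, 2.69 for KLK2, 2.34 for the pseudogene KLKP1 and 2.03 for KLK4. KLK1 and the 10 kallikreins from KLK5 to KLK14 had too few reads to be tested. KLK2, KLK3 and KLKP1 are close copies, so reads may be split between them. Further members that rose were TRPM8, a cold-sensing cation channel (log2 2.20), BMPR1B, a bone morphogenetic protein receptor (2.05), ABCC4, an efflux transporter (1.58), SORD, sorbitol dehydrogenase (0.99), SGK1, a kinase also induced by glucocorticoids (0.88), and SLC45A3, known as prostein (0.78). Members past the largest 5 of a list, here and below, were named after their values were seen.

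The promoters of 3 of these genes hold a loose form of the core letters of an androgen response element. They are shown because KLK3, KLK2 and CENPN were the only members of the androgen list, of 34 with a promoter in the RefSeq table, with the letters GNACA and GTNC, spaced by 4 bases of any kind, on either strand between 250 bases before and 50 bases after the start (8.82%, against 2.65% of 27305 genes in the table). The share was 2.68% among genes called higher and 2.43% among genes called lower, so it was near the background in both. The match lies 169 to 157 bases before the start in KLK3, 175 to 163 in KLK2 and 247 to 235 in CENPN, all on the plus strand. The KLK3 and KLK2 windows were 84.9% identical over 291 aligned bases and share the matched letters. The 250 bases before the start follow, from RefSeq on GRCh38.p14, plus strand, with the match in capitals, for KLK3 at chr19:50854665-50854914, KLK2 at chr19:50873189-50873438 and CENPN at chr16:81006964-81007213.
KLK3: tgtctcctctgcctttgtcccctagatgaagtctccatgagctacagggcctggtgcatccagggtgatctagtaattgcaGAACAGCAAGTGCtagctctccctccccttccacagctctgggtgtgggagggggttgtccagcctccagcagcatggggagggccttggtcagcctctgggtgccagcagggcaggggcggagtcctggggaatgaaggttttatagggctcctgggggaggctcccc
KLK2: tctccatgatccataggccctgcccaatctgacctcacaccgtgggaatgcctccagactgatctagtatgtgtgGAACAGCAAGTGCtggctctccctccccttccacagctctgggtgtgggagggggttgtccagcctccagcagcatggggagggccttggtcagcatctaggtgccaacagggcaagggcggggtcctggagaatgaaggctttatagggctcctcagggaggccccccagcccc
CENPN: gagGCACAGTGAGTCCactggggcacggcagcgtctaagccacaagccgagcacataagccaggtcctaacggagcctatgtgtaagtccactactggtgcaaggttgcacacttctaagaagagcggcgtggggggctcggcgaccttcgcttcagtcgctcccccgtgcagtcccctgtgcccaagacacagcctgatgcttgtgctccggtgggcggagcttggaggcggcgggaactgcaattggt
The sequence is the reference and was not read from these cells. A match is a description of letters and not a measured binding site.

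Other well-known androgen-induced genes did not pass. TMPRSS2, a membrane serine protease, was at 162 and 141 CPM on plastic and 209 and 202 CPM on ACP, a log2 difference of 0.44 ± 0.23 that did not pass (adjusted p 0.265). It was at 1066 and 1037 CPM on plastic in control medium and at 991 and 987 CPM on ACP with androgen, above both stripped groups. FKBP5, a co-chaperone of steroid receptors, was at 63.8 and 82.5 CPM on plastic and 62.4 and 84.4 CPM on ACP (log2 0.01 ± 0.23, adjusted p 0.991), and the libraries of the groups overlapped. PGC, a pepsinogen chosen after its values were seen, was at 1.17 and 0.45 CPM on plastic and 2.21 and 2.29 CPM on ACP, against 371 and 61.3 CPM with androgen (stripped groups, adjusted p 0.370). KLK3 on ACP in stripped serum lay below its level on plastic in control medium, where it was at 2886 and 2887 CPM. CENPN on ACP in stripped serum lay within its 2 plastic control values of 475 and 366 CPM. Without plastic replicates 1 and 2 and ACP replicates 1 and 2 in turn, 5, 10, 7 and 7 of the list passed. KLK3, KLK2 and CENPN passed each time, KLKP1 was lost without plastic replicate 1 or ACP replicate 1 and TRPM8 without plastic replicate 1 or ACP replicate 2, and the calls of KLK2 (adjusted p 0.0551) and TRPM8 (adjusted p 0.205) were lost in a fit of all lines.

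**Figure D3:**
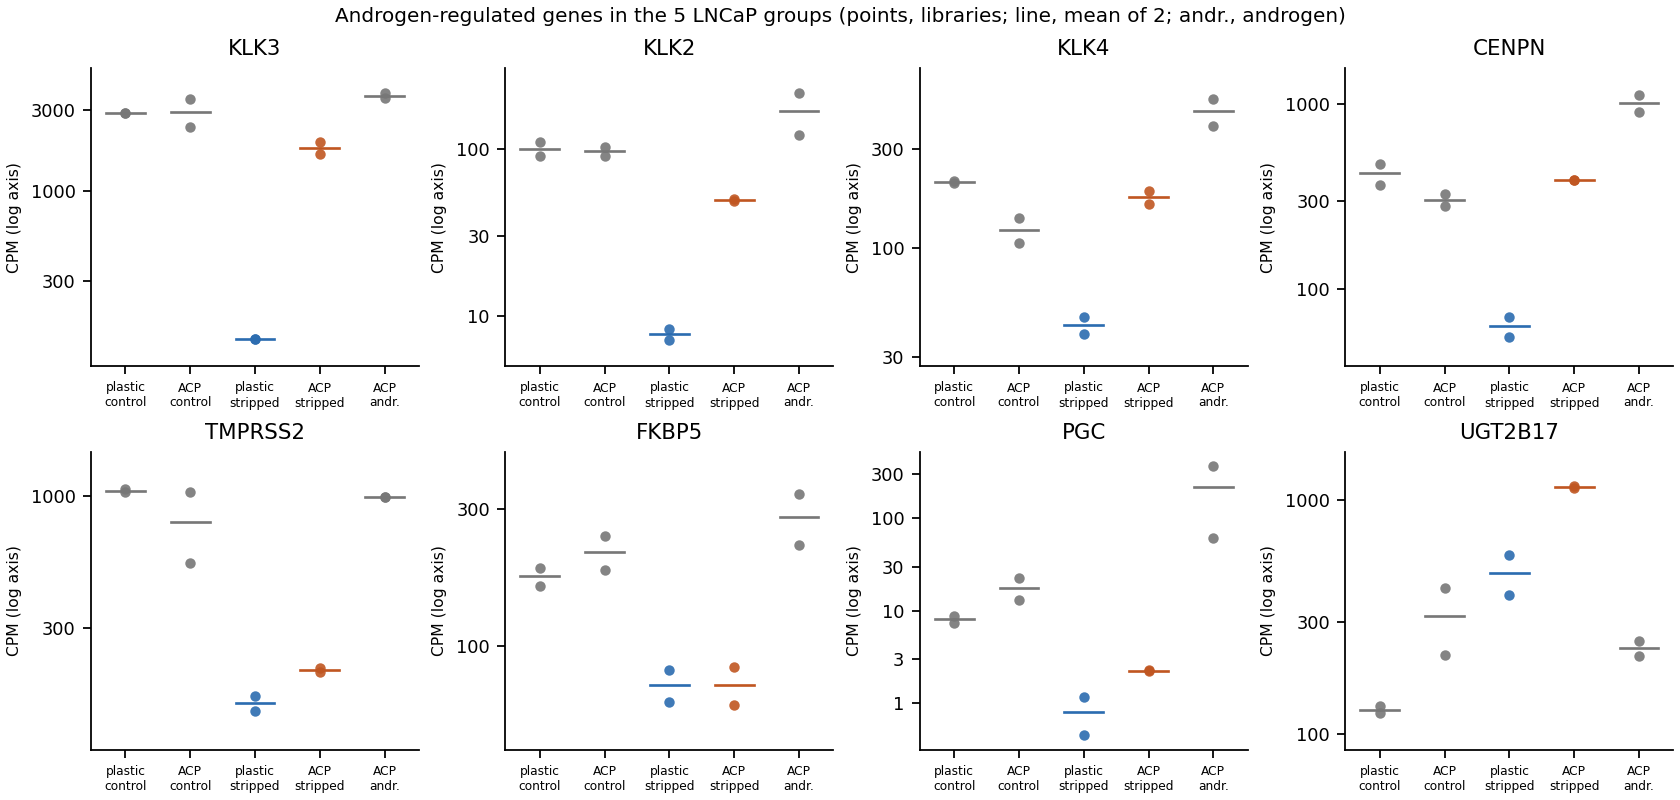
CPM on log axes of 8 androgen-regulated genes in the 10 LNCaP libraries, 2 points a group with a line at their mean. Blue is plastic and orange ACP in stripped serum, and grey marks the other groups. KLK3, KLK2, KLK4 and CENPN were higher on ACP than on plastic in stripped serum, while FKBP5 overlapped between them and TMPRSS2, FKBP5 and PGC lay below all libraries of the other 3 groups in both stripped groups.

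Androgen-repressed genes gave 1 call in each direction among 15 tested (median log2 change 0.23). That is 6.67% each way, against 4.32% of all genes higher and 1.8% lower. UGT2B17, which inactivates androgens by glucuronidation, rose from 394 and 583 CPM to 1118 and 1136 CPM (log2 1.21 ± 0.27, adjusted p 0.0267). Its close copies in the UGT2B cluster make that size uncertain. OPRK1, the kappa opioid receptor, fell from 185 and 145 CPM to 47.5 and 65.5 CPM (log2 -1.55 ± 0.41, adjusted p 0.0498). Both calls were lost without plastic replicate 1, ACP replicate 1 or ACP replicate 2, and that of OPRK1 also without plastic replicate 2 and with DESeq2 (adjusted p 0.100). Neither passed in the fit without the plastic control libraries or in that of all lines.

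Some cholesterol synthesis genes were higher on ACP. Of 25 tested, 7 passed, all higher (28%, against 4.32% of all genes), and the median log2 change was 0.45, with 23 of 25 above 0. MSMO1, a sterol demethylation enzyme, went from 39.5 and 67.5 CPM to 159 and 138 CPM (log2 1.48 ± 0.23, adjusted p 0.00670). STARD4, a sterol carrier, rose by 1.40 on the log2 scale, IDI1, an isoprenoid isomerase, by 1.32, INSIG1, a sterol sensor that holds back the pathway, by 1.10, FDFT1, squalene synthase, by 0.87 and SC5D, a desaturase, by 0.77. The sterol response letters TCACNCCAC were searched on both strands in the same promoter windows. They were found in 1 of the 18 cholesterol genes with a promoter in the table (5.56%, against 1.39% of all genes), SREBF2, a regulator of sterol synthesis named here for that match, and in none of the 5 called members among the 18. In 24 fatty acid genes tested, 4 passed, all higher (16.7%): SCD, a desaturase (log2 0.85), ACSL1, an acyl-CoA synthetase (0.80), ELOVL1, an elongase (0.72), and LPIN1, a phosphatidate phosphatase (0.69). In turn without plastic replicates 1 and 2 and ACP replicates 1 and 2, 0, 8, 0 and 4 cholesterol genes and 0, 5, 0 and 0 fatty acid genes passed, and FDFT1, SCD, ELOVL1 and LPIN1 were lost in the fit of all lines.

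Genes that handle calcium and phosphate gave 4 calls among 36 tested, all higher (11.1%, against 4.32% of all genes), with a median log2 change of 0.02. DESeq2 called 8 of them, 5 higher and 3 lower, against 1107 higher and 668 lower of all 14656 genes. ANKH, which exports pyrophosphate and ATP and thereby restrains mineral growth, was at 69.5 and 64.4 CPM on plastic and 268 and 247 CPM on ACP (log2 1.94 ± 0.25, adjusted p 0.00186). Its groups did not overlap, and its call held without each library. S100P and TRPM8 are described above, and S100A11, a calcium-binding protein, rose by 0.64. SLC20A1 and SLC20A2, which import phosphate, did not pass (log2 -0.06 and 0.24, adjusted p 0.856 and 0.460), nor did the calcium channel TRPV6 (log2 0.40, adjusted p 0.191), these 3 being named after their values were seen. In turn without plastic replicates 1 and 2 and ACP replicates 1 and 2, 2, 4, 3 and 2 members passed, 1 of the 4 without plastic replicate 2 being lower, and S100A11 was lost each time and with offsets for GC content and length.

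Bone matrix genes gave calls in both directions. Among 24 tested, 1 rose (4.17%, near the 4.32% of all genes) and 3 fell (12.5%, against 1.8%), and the median log2 change was 0.03. RUNX2, a transcription factor of osteoblasts that is also made in prostate cancer, went from 2.37 and 3.13 CPM to 9.28 and 9.40 CPM (log2 1.79 ± 0.28, adjusted p 0.00575). WNT5A, a secreted Wnt ligand, fell by 1.18 on the log2 scale, COL1A1, a chain of type I collagen, by 0.94, and LRP5, a Wnt co-receptor, by 0.76. ALPL, the alkaline phosphatase of mineralising cells, had 12 and 5 reads on plastic and 1 and 0 on ACP, too few for the test, which gives a ratio of 0.0601 with an exact 95% interval of 0.00144 to 0.383 and was noticed after its values were seen. Without plastic replicates 1 and 2 and ACP replicates 1 and 2 in turn, 0, 3, 1 and 2 of these members passed, and LRP5 was also lost with offsets for GC content and length (log2 -0.41).

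Adhesion genes were called in both directions. Of 40 integrin and basement membrane genes tested, 2 rose (5%, near the 4.32% of all genes) and 3 fell (7.5%, against 1.8%), and the median log2 change was -0.18. LAMB3, a laminin chain of basal epithelium, went from 5.15 and 5.19 CPM to 19.8 and 25.9 CPM (log2 2.14 ± 0.52, adjusted p 0.0360). Its call was lost without each library (log2 1.93 to 2.30) and in the fit without the plastic control libraries. CD9, a tetraspanin, rose by 0.74. LAMC3 and LAMA5, further laminin chains, fell by 1.65 and 0.87, and AGRN, a basement membrane proteoglycan, fell by 0.77. Of 24 epithelial and mesenchymal genes 1 passed (4.17%), FN1, fibronectin, at 368 and 320 CPM on plastic and 1736 and 1528 CPM on ACP (log2 2.25 ± 0.33, adjusted p 0.00429). VIM, vimentin, named after its values were seen, overlapped between the groups (log2 -0.11 ± 0.49, adjusted p 0.914). The FN1 call was lost without plastic replicate 1 (adjusted p 0.0762). Without plastic replicates 1 and 2 and ACP replicates 1 and 2 in turn, 0, 4, 0 and 0 integrin and basement membrane genes passed, and LAMA5 (log2 -0.24) and AGRN (log2 -0.21) were also lost with offsets for GC content and length.

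Interferon-stimulated genes had a median log2 change of 0.63, and 31 of 38 lay above 0. Of these 38 tested, 5 passed, all higher (13.2%, against 4.32% of all genes). B2M, the light chain of class I antigen presentation, was at 190 and 236 CPM on plastic and 589 and 551 CPM on ACP (log2 1.42 ± 0.18, adjusted p 0.00178). OAS1, an antiviral RNA sensor, rose by 1.73, ISG20, an exonuclease, by 1.33, IFIT1 by 1.12 and IFI35 by 0.88. B2M passed without each library, while 1, 2, 1 and 1 of the list passed without plastic replicates 1 and 2 and ACP replicates 1 and 2 in turn. Secretory mucosal proteins had the highest median of the 20 lists, 0.79, with 4 of 15 passing, all higher (26.7%). They were REG4, AGR2, MSMB, a secreted prostate protein (log2 2.70), and CEACAM6, an adhesion protein that had 0 and 0 reads on plastic and 23 on ACP, at least 7.83-fold higher against a floor of 3 reads over the group. MSMB was lost without plastic replicate 1 or ACP replicate 2 and CEACAM6 without each library, and 1, 3, 3 and 2 of the list passed in that order of libraries.

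Stress and metabolic lists gave up to 3 calls each with edgeR. Of 34 endoplasmic reticulum folding genes, AGR2, DNAJB9, a co-chaperone (log2 1.26), and HERPUD1, of protein degradation (0.59), rose (8.82%, against 4.32% of all genes). Of 35 genes of ATF4 and amino acid supply, 3 fell (8.57%, against 1.8% of all genes): PHGDH, the entry enzyme of serine synthesis (log2 -0.75), SLC7A1, a cationic amino acid importer (-0.60), and CBS, of cysteine synthesis (-0.58). The median of that list was -0.23. Among 38 glycolysis and hypoxia genes EGLN1, an oxygen-sensing hydroxylase, rose by 1.23 and PFKM, a phosphofructokinase, fell by 0.56, or 2.63% in each direction. FOS, an immediate early gene, was at 0.55 and 1.56 CPM on plastic and 9.48 and 10.0 CPM on ACP (log2 3.33 ± 0.75, adjusted p 0.0288). AJUBA, a LIM protein of the Hippo pathway, fell by 0.87. They were the only calls among 31 YAP and immediate early genes, or 3.23% in each direction. Of all 14656 genes, DESeq2 called 1107 higher and 668 lower. In these lists it called 5 folding genes, all higher, and 7 of the ATF4 list, all lower. It also called 5 glycolysis and hypoxia genes, 4 of them higher, and 4 YAP and immediate early genes, 3 of them higher. Without plastic replicate 1 none of these calls was kept but that of AGR2, and without either ACP library all were lost but AGR2, DNAJB9 without ACP replicate 1 and EGLN1 without ACP replicate 2. SLC7A1 was also lost with offsets for GC content and length. FOS was at 2.62 without plastic replicate 1 and at 4.14 without plastic replicate 2.

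Some respiratory chain subunits were higher on ACP: 7 of 36 passed, all higher (19.4%, against 4.32% of all genes), and 32 of 36 lay above 0 (median log2 change 0.33). DESeq2 called 13, all higher, against 1107 higher of all 14656 genes. COX6C, a subunit of cytochrome oxidase, went from 104 and 76.5 CPM to 166 and 177 CPM (log2 0.92 ± 0.17, adjusted p 0.0142). UQCRQ, NDUFA4, NDUFB3, COX7B, NDUFV2 and SDHC rose by 0.73 to 0.91. These are short genes, several with processed copies elsewhere in the genome. With offsets for GC content and transcript length 3 of the list passed, and COX6C (log2 0.49), NDUFA4, NDUFB3 and COX7B were not among them. Without plastic replicates 1 and 2 and ACP replicates 1 and 2 in turn, 2, 5, 0 and 0 passed.

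Proliferation genes passed in 2.78% of the DNA replication list and 0% of the mitosis list, against 6.12% of all genes in either direction. The lists are short, and a difference from that background was not tested. Of 34 mitosis genes 0 passed with edgeR, 0 had an unadjusted p below 0.05 and 0 passed with DESeq2. Of 36 DNA replication genes RFC2, a clamp loader subunit, rose by 0.84, a call lost without each library, and without plastic replicate 2 the list's 1 call was a lower one. MKI67, a marker of cycling cells named after its values were seen, was at 75.8 and 78.7 CPM on plastic and 50.1 and 56.1 CPM on ACP and did not pass (log2 -0.54 ± 0.29, adjusted p 0.273). Of 18 metallothionein and zinc transport genes 0 passed with edgeR, 3 had an unadjusted p below 0.05 and 2 passed with DESeq2. Among 15 neuroendocrine and neural genes CHGA, chromogranin A, passed (6.67%, against 4.32% of all genes higher). It had 0 and 0 reads on plastic and 18 on ACP, at least 6.13-fold higher. Its call was lost without each library, while DESeq2 gave it no adjusted p and called 1 other member, which was lower. Among 19 histone and other RNAs without a poly(A) tail HIST1H1C rose by 0.83 (5.26%, near the 4.32% of all genes), a call lost without each library.

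**Figure D4:**
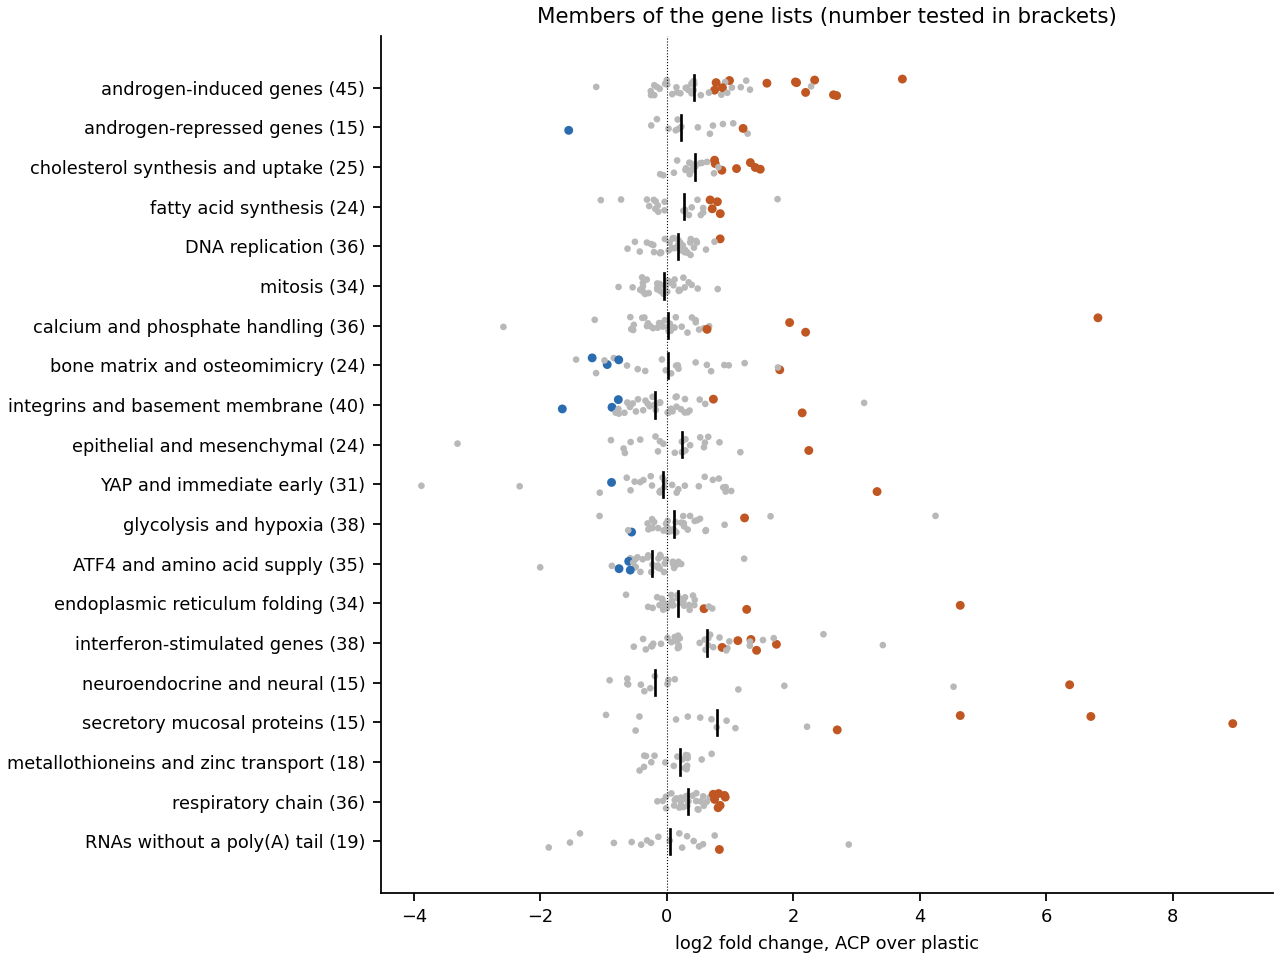
Log2 fold change of ACP over plastic for every tested member of the 20 gene lists, with the number tested in brackets; orange points were called higher, blue points lower, grey points neither, the black tick is the list's median and the dotted line the median of all genes (0.01). Points are spread vertically for display only. The androgen-induced, cholesterol and respiratory chain lists hold orange and no blue points, and the ATF4 list blue and no orange ones.

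The 12 largest falls by the same rule were smaller than the 12 largest rises. ADRA2A, an adrenergic receptor, was at 35.1 and 29.7 CPM on plastic and 3.90 and 11.4 CPM on ACP (log2 -2.09 ± 0.49, adjusted p 0.0322). LAMC3 was at 5.15 and 4.91 CPM on plastic and 1.45 and 1.76 CPM on ACP (log2 -1.65 ± 0.28, adjusted p 0.00967). ROBO3, an axon guidance receptor, fell by 1.64 on the log2 scale, ABCC8, the sulfonylurea receptor, by 1.59, and OPRK1 by 1.55. LINC01144 and C5orf66, noncoding or poorly described transcripts, fell by 1.40 and 1.38, and KIAA0754 by 1.39. PTPN14, a phosphatase of the Hippo pathway, fell by 1.32, TLN2, a talin that links integrins to actin, by 1.30, and TNIK, a kinase of the Wnt pathway, by 1.29. In 8 of the 12 both stripped plastic libraries lay above both plastic control libraries, and in all 12 both ACP libraries with androgen lay below both stripped plastic libraries. As with the rises, such counts reuse the stripped plastic libraries that chose the genes and are a description with no test. All 12 calls were lost without plastic replicate 1. Without ACP replicate 1 all 12 were lost too, without ACP replicate 2 all but ADRA2A and PTPN14, and without plastic replicate 2 those of ADRA2A and OPRK1. ADRA2A was at -3.06 without ACP replicate 2. ADRA2A, OPRK1 and KIAA0754 did not pass in the fit without the plastic control libraries (adjusted p 0.0519, 0.0836 and 0.0767), and ABCC8, OPRK1, LINC01144, KIAA0754 and TLN2 did not pass in that of all lines.

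Genes that fell had longer and more GC-rich transcripts than genes that rose. The longest transcript had a median of 5671 bases among genes called lower, 2841 among genes called higher and 3567 among all genes tested (97.2% with a length). Median GC content was 57.7%, 43.2% and 48.7% in the same order. With genes split by length into 5 bins of 2850, from the shortest to the longest bin the share called higher went from 5.93% to 2.56% and the share called lower from 0.56% to 4.46%. With offsets for GC content and length, an alternative chosen after the data were seen, 811 genes were called, 646 higher and 165 lower, and 536 of them were among the 897. KIAA0754 (adjusted p 0.0896) then no longer passed, while KLK3 (log2 3.73), REG4 (8.71) and DSCAM-AS1 (8.13) did.

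**Figure D5:**
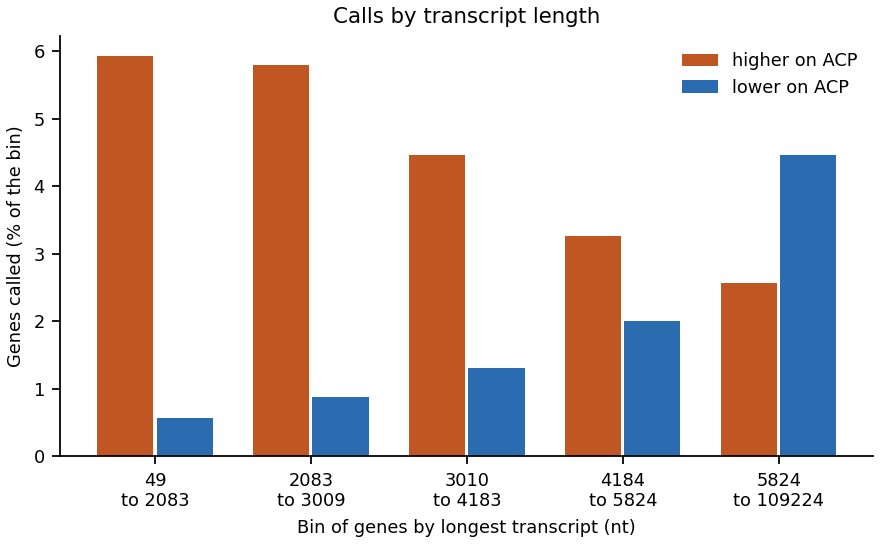
Percent of tested genes called higher (orange) and lower (blue) on ACP in 5 bins of 2850 genes by the length of the longest transcript, with the range in bases below each pair of bars. The share called higher falls from 5.93% to 2.56% and the share called lower climbs from 0.56% to 4.46% from the shortest to the longest bin.

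The surface effect in LNCaP was set against that in MDAPCa2a, a prostate line from a bone metastasis and the other line with 2 libraries on each surface in stripped serum. MDAPCa2a plastic carried a protein coating that its ACP surface lacked, so coating and surface cannot be told apart there, and its medium was another. In a fit of all 34 libraries 62 of 17323 genes had effects that differed between the lines (0.358%), 55 more positive in LNCaP (0.317%) and 7 more negative (0.0404%). CPM in this paragraph use library sizes scaled over all lines. DSCAM-AS1 had the largest positive difference, at 107 to 144 CPM on ACP in LNCaP and at most 0.46 CPM in the stripped LNCaP plastic and the 4 stripped MDAPCa2a libraries (log2 difference 8.48 ± 1.36, adjusted p 0.00292). The GAPLINC effect differed by 6.96 ± 1.03 (adjusted p 0.00187). ADRA2A had the most negative difference, since it was at 5.53 and 9.76 CPM on ACP and 1.00 and 0.85 CPM on plastic in MDAPCa2a, opposite to LNCaP (log2 difference -5.18 ± 0.84, adjusted p 0.00234). PPFIA2, a scaffold protein of synapses, had a difference of -3.26 ± 0.72 (adjusted p 0.0413) and did not pass in LNCaP by itself (log2 -0.45, adjusted p 0.204).

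Several LNCaP rises started from a level far below that of MDAPCa2a. S100P was at 347 to 663 CPM in the 4 stripped MDAPCa2a libraries on either surface and at 1.98 and 2.14 CPM on plastic in LNCaP (log2 difference 6.57 ± 0.82, adjusted p 1.16e-04). AGR2, at 45.2 to 82.5 CPM in those MDAPCa2a libraries, had a difference of 4.41 ± 0.56 (adjusted p 1.17e-04). KLK3 was at 7006 to 11697 CPM in the same 4 MDAPCa2a libraries (log2 difference 3.48 ± 0.74, adjusted p 0.0300), and KLK2 did not pass (2.69 ± 0.96, adjusted p 0.303). INSIG1 (1.68 ± 0.27, adjusted p 0.00234), ACSL1 (1.26 ± 0.23, adjusted p 0.00806) and ANKH (1.74 ± 0.32, adjusted p 0.00821) were among the other genes whose effects differed. INSIG1 and ACSL1 did not start far below MDAPCa2a, at 60.2 and 69.4 and at 311 and 301 CPM on LNCaP plastic. In MDAPCa2a INSIG1 was lower on ACP, at 57.0 and 52.7 CPM against 73.4 and 93.6 CPM on plastic. ACSL1 was lower there too, at 204 and 220 against 293 and 304 CPM, while ANKH was at 224 and 209 against 185 and 200 CPM. REG4 did not pass (7.44 ± 1.71, adjusted p 0.0549). The count of 62 was 123 in a fit of these 2 lines alone, and with a library left out 26 without LNCaP plastic replicate 1, 36 without plastic replicate 2, 37 without ACP replicate 1 and 34 without ACP replicate 2. The difference in DSCAM-AS1 was lost without MDAPCa2a plastic replicate 2 (7.76, adjusted p 0.133), and it was 9.69 without MDAPCa2a ACP replicate 1 and 7.79 without MDAPCa2a ACP replicate 2. That in GAPLINC was 9.99 without LNCaP plastic replicate 1, that in S100P 5.96 without LNCaP ACP replicate 1 and that in ADRA2A -6.12 without LNCaP ACP replicate 2, and these 3 passed each time. Those in KLK3 and PPFIA2 were lost without any 1 of the libraries other than MDAPCa2a ACP replicate 1 (PPFIA2 -1.92 without MDAPCa2a ACP replicate 2 and -3.93 without MDAPCa2a ACP replicate 1). That in ACSL1 was lost without LNCaP ACP replicate 1 (adjusted p 0.0584) and that in ANKH without LNCaP plastic replicate 2 (adjusted p 0.0661).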

How the data were processed

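RNA of 4 prostate lines was sequenced in 34 libraries after poly(A) selection by a service provider, per the labels' protocols. The deposited values are raw read counts per gene, which the authors made with STAR and HTSeq on hg19, per the submitters' processing notes; the sources used here give neither annotation nor strand setting. The table holds 26336 genes, 4335 of them with 0 reads throughout.

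Counts were tested in R 4.3.3 with edgeR 4.0.16: scaling by TMM, a filter by filterByExpr (minimum count 10), the quasi-likelihood F test (two-sided) and Benjamini-Hochberg adjustment over all genes tested, with a threshold of 0.05. The 10 LNCaP libraries in 5 groups shared 1 fit, and the difference from MDAPCa2a used all 34 in 17 groups. SE is the size of the log2 change divided by the root of F. On simulated counts 66% of genes changed by 1 on the log2 scale and 100% of those changed by 2 were recovered in the LNCaP comparison, and 86.5% at 2 in the difference between lines. The simulation gave every gene and line the same spread and changed only genes averaging over 2 CPM. Recovery of genes with a larger spread or fewer reads was not tested.

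Genes named are the 12 largest called rises and falls whose higher group averaged 5 CPM or more and whose libraries did not overlap, up to 5 called members per list and direction, KLK3, KLK2, TMPRSS2 and FKBP5, and the 2 largest differences between lines in each direction. The 20 gene lists, the 8 marker lists and this rule were chosen with earlier results of these data known. Some items are not reported here. Alternatives were DESeq2 1.42.0, other scaling, no filter, other sets of libraries, the replicate number as a block, each library left out (a lone library is then assumed to vary like the other groups) and, chosen after the data were seen, lowess offsets (span 0.3) for GC content and transcript length. Promoters came from RefSeq, and transcript lengths and GC content from the longest GENCODE transcript of a gene, both matched by symbol. Exact intervals are at 95% and cover counting error only.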

Additional observations from a re-analysis of the deposited data

Results flagged for a closer look

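The surface effect in stripped serum differed between LNCaP and MDAPCa2a in 62 genes, by a test of the difference itself (edgeR's quasi-likelihood test, adjusted p below 0.05). Among the genes named, the log2 effect was more positive in LNCaP by 8.48 for DSCAM-AS1, 6.96 for GAPLINC, 6.94 for C8orf4, 6.57 for S100P, 5.02 for BASP1, 4.57 for HOPX, 4.41 for AGR2, 4.02 for TARP, 3.74 for NFKBIZ and 3.48 for KLK3. It was more positive by 2.68 for CD55, 2.35 for CENPN, 1.74 for ANKH, 1.68 for INSIG1 and 1.26 for ACSL1. For ADRA2A the difference was -5.18 and for PPFIA2 -3.26.

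HOPX was lost with RLE scaling (adjusted p 0.0590), in a fit of both lines alone, and without any 1 of the libraries other than MDAPCa2a ACP replicate 1, without which it was 5.60; it was 3.98 without MDAPCa2a ACP replicate 2. BASP1 was lost without LNCaP plastic replicate 1 (adjusted p 0.0582) and CD55 without LNCaP plastic replicate 1 or 2 (adjusted p 0.0855 and 0.0598). C8orf4 was 7.56 without LNCaP plastic replicate 1 and TARP 4.84 without MDAPCa2a ACP replicate 1, and both passed there.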

How the results depend on the processing

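Calls for the LNCaP surface comparison numbered 897, and 1775 with DESeq2, 1827 without the count filter, 372 without the plastic control libraries in the fit, 342 in the fit of all lines and 346 at a log2 change of at least 1. RLE scaling gave 886, the fit of the 4 compared libraries 1150 and the offsets for GC content and length 811. Leaving out 1 library gave 66 to 1278. The 62 differences between lines became 212 with DESeq2, 184 without the filter, 123 in a fit of LNCaP and MDAPCa2a, 53 with RLE scaling and 26 to 73 with 1 library left out. With the replicate number as a block the counts were 987 and 73, and 856 of the 897 calls were kept. The labels give a number only; deviations of same-numbered libraries correlated at 0.2575 over genes in 2 pairs. Of the 79 genes named by rule, FKBP5 alone, which was not called, changed direction in LNCaP (log2 -0.23 to 0.20 with 1 library left out). Of these 79, 36 were on the other side of the threshold in the fit of all lines, 22 without the plastic control libraries, 13 with the offsets and 3 with DESeq2, and 60, 15, 53 and 47 without plastic replicates 1 and 2 and ACP replicates 1 and 2. The cause of these changes was not tested. The least deep library had 17.1 M reads, and genes under the count filter were not testable.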
